A study of Mus musculus with 30 samples.

Results

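The genes through which brain tissue receives and clears the monoamines, the receptors for serotonin, noradrenaline and dopamine together with the monoamine oxidases and plasma membrane transporters, were examined in open chromatin of the mouse ventral hippocampus. The 31 genes comprise 13 serotonin, 8 adrenergic and 5 dopamine receptor genes, 2 oxidase genes (Maoa and Maob) and 3 transporter genes. A peak belonged to a gene where its region (GRCm38) overlapped the RefSeq gene body extended by 10 kb on both sides, which gave 183 of the 257149 peaks in the count table. Of these, 91 lay at serotonin, 61 at adrenergic and 23 at dopamine receptor genes, 1 at Maoa and 7 at transporter genes. Peaks were found for 29 of the 31 genes, and none lay in the windows of Maob or Slc6a3, the dopamine transporter gene.

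The assay was ATAC-seq, where a transposase inserts adapters into accessible DNA. Each of the 30 libraries came from the ventral hippocampus of a separate mouse. Mice were handled (controls) or restrained in a tube on each of 10 days, then housed alone for 24 h, and were collected with no further stress (0 min) or 45 min after an acute restraint began. There were 8 handled mice at 0 min (4 females, 4 males), 7 handled mice at 45 min (3 females, 4 males), 8 chronically restrained mice at 0 min (4 females, 4 males) and 7 chronically restrained mice at 45 min (4 females, 3 males). The labels name no transgene, drug or strain, and each of the 4 labelled batches held all 4 groups. Whole tissue was used, so fewer cells of a type and less open chromatin per cell cannot be told apart.

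Monoamines reach the hippocampus in axons of neurons whose cell bodies lie in the brainstem and midbrain. Serotonin, noradrenaline and dopamine act there mostly on receptors coupled to G proteins, which raise cyclic AMP (Gs), lower it (Gi) or activate phospholipase C (Gq), while Htr3a encodes a subunit of an ion channel. The transporters Slc6a4 (serotonin), Slc6a2 (noradrenaline) and Slc6a3 (dopamine) take the transmitters back into the terminals that released them, and the oxidases break them down. The transporter genes are therefore known as genes of the releasing neurons, and the receptor genes also as genes of hippocampal cells.

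The stretches around 5 starts, from 250 bases before to 50 bases after the RefSeq transcription start (GRCm38.p6), are shown. They belong to genes at the ends of the range of levels and to the gene called between the sexes. Maoa and Adrb1 had the most accessible starts, and Slc6a4 and Slc6a3 had no peak over the start. Htr2c was called between females and males as a summed gene, near the threshold (below). Each stretch is written 5′ to 3′ in lower case with CpG dinucleotides in capitals.
Maoa, chrX:16619448-16619747, plus strand: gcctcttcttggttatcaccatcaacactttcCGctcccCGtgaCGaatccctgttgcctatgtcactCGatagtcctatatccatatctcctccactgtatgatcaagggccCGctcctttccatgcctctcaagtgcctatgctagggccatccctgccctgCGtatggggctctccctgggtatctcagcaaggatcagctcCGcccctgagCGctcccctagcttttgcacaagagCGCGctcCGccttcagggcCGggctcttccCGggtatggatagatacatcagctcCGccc
Adrb1, chr19:56721867-56722166, plus strand: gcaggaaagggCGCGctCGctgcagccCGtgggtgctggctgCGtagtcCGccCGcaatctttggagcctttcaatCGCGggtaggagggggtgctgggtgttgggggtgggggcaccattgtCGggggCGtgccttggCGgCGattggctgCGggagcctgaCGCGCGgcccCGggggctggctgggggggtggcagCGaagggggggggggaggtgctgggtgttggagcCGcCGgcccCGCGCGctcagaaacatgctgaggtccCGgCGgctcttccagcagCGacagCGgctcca
Htr2c, chrX:146962263-146962562, plus strand: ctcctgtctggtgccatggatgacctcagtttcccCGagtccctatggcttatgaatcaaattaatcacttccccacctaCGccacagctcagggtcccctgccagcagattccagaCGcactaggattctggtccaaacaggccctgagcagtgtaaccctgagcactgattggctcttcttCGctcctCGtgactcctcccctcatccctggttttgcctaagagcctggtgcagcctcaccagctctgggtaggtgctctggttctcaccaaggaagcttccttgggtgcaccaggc
Slc6a4, chr11:76998347-76998646, plus strand: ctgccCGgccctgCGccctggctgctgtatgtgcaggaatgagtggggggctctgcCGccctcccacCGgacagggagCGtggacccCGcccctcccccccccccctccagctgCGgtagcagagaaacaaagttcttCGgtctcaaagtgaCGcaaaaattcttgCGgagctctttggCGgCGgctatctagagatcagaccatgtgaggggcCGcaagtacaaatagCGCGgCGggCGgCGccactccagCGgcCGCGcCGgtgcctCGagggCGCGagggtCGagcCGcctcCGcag
Slc6a3, chr13:73536497-73536796, plus strand: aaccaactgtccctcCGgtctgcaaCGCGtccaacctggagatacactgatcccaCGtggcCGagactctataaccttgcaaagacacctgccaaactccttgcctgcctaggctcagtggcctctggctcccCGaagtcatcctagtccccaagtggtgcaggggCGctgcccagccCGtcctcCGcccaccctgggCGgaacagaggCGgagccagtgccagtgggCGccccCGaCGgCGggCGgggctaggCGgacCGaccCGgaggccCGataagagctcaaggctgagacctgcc
The Slc6a4 and Slc6a3 stretches hold 28 and 20 CpG, against 28 for Adrb1, 14 for Maoa and 5 for Htr2c, and a median of 7 over all RefSeq promoters of this length. CpG number did not order these 5 starts by accessibility. Among the 27 promoter stretches listed for 23 of the genes, Htr7 had the highest number of CpG (46) and Drd3 the lowest (2). The GC box GGGCGG, searched on both strands, was found in 18 of the 27, against 35.7% of 32851 promoters. The cyclic AMP response element TGACGTCA, held by 1.79% of all promoters, was found in none of the 27. These matches describe letters in short windows and not bound sites.

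Most genes with a listed start had it in a peak. A start was listed for 23 of the 31 genes, and in 20 of these 23 (87%) it lay in a peak, against 66% of 17492 protein coding genes with a listed start. The exceptions were Slc6a4, Slc6a3 and Drd3. Levels are given as CPM, counts scaled to the effective size of each library, and between genes as CPM per kb of peak. The median start peak of the 20 genes had 4.25 CPM per kb, and that of all protein coding genes with a start peak 6.06 CPM per kb.

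Maoa, which breaks down serotonin and noradrenaline, had the highest level over its start, 9.0 CPM per kb in a peak of 2568 bp (chromosome X, 16617890 to 16620457), at the 81.3rd percentile of start peaks. This was its only peak, with 23.1 ± 3.8 CPM (SD, n = 30), and 22.5 ± 2.0 CPM (n = 29) without the library of animal 45, described below. Adrb1, a beta adrenergic receptor coupled to Gs, followed with 7.62 CPM per kb (chromosome 19, 56720053 to 56724288, 70.6th percentile). The start peak of Htr2b, a Gq-coupled serotonin receptor, had 6.62 CPM per kb but was 242 bp wide, and all 6 Htr2b peaks also overlapped Psmd1, so they cannot be assigned to Htr2b. Adra2a, a Gi-coupled alpha receptor, had 5.90 CPM per kb (47.5th percentile). A peak inside Htr4, the Gs-coupled serotonin receptor gene with the most peaks (31), had 6.67 CPM per kb (chromosome 18, 62453925 to 62455208), and together with these 4 start peaks it made up the 5 densest of the 183.

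**Figure D1:**
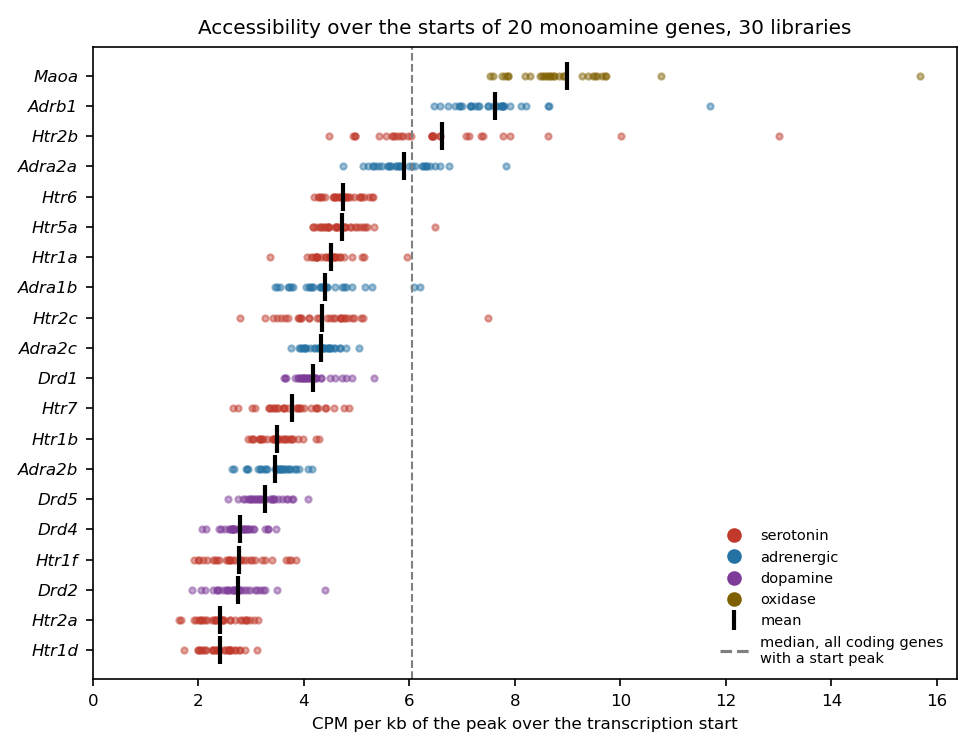
CPM per kb of the peak over the transcription start of 20 monoamine genes, with a point for each of 30 libraries coloured by system, a black bar at the mean and a dashed line at the median of all protein coding genes with a start peak (6.06). Maoa, Adrb1 and Htr2b have means right of the line, and Htr2a and Htr1d are lowest.

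Below Adrb1, Htr2b and Adra2a, the start levels of the other receptor genes ran from Htr6 (4.74 CPM per kb), Htr5a (4.72) and Htr1a (4.51) down to Htr2a (2.42) and Htr1d (2.41). Htr1a encodes the Gi-coupled receptor known from hippocampal pyramidal cells and from serotonin neurons, and Htr6 a Gs-coupled receptor. The other adrenergic starts were those of Adra1b (Gq, 4.40), Adra2c (Gi, 4.32) and Adra2b (Gi, 3.45). Of the dopamine receptor starts, Drd1 (Gs) had 4.18, Drd5 (Gs) 3.26, Drd4 (Gi) 2.79 and Drd2 (Gi) 2.75 CPM per kb. The library ranges of each pair of neighbours in the order of all 20 start levels overlapped. For genes with no listed start, the peak at a gene end with the highest count stood in: 4.83 CPM per kb at Htr4, 4.12 at Adra1d, 4.10 at Htr3a, 3.17 at Adra1a and 3.00 at Htr5b. Adrb3 and Slc6a2 had no gene-end peak.

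The serotonin transporter gene had a single peak in its window, of 2112 bp (chromosome 11, 76995636 to 76997747), which ended 850 bp before the start. It had 7.85 ± 0.77 CPM (SD, n = 30). The noradrenaline transporter gene Slc6a2 had 6 peaks, 4 inside the gene, with 9.66 ± 0.89 CPM in all. Drd3 had 2 peaks, both far inside the gene, and 4.45 ± 0.54 CPM. Of the starts of 9 markers of monoaminergic neurons, a list that includes Slc6a4 and Slc6a3 themselves, 3 lay in a peak. These were the starts of Tph2, Dbh and Pitx3, at 3.25 to 4.85 CPM per kb. Besides Slc6a4 and Slc6a3, the markers Th, Fev, En1 and Lmx1b had no peak over the start. Of the markers of hippocampal excitatory neurons 6 of 8 starts lay in a peak (median 5.26 CPM per kb), and of striatal markers, which include the members Drd1 and Drd2, 4 of 4 (3.64). Of the markers of microglia and of endothelial and mural cells 2 of 4 starts each lay in a peak.

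Peaks were widest at Adra2c (14725 bp over the start), at Htr6 (12427 bp, over the neighbour Nbl1) and at Adra1d (9354 bp). These genes also had large summed levels, 77.5 ± 4.2 CPM for Adra2c, 159 ± 5.6 for Htr6 and 103 ± 4.3 for Adra1d. Of all 183 peaks, 115 overlapped the body of their gene, 49 lay within 1 kb of a gene end and 23 overlapped another protein coding gene. The latter were those of Htr2b, part of Htr4, Htr5b, Htr6 and Drd4, and 1 of Adrb3. The RefSeq table used here gave no exons, so whether a peak is exonic or intronic is not stated. The mean count per library of a peak had a median of 58.4 (15.67 to 2509).

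Among the libraries, that of animal 45 (a handled 0 min female) differed most from the rest. It had 42.15% of its counts within 1 kb of gene ends, against 37.68% to 40.25% in the other libraries, and a scaling factor (TMM) of 0.875 against 0.971 to 1.03. On TMM-scaled CPM it was the highest of 30 libraries for 20 of 29 genes, and on CPM by total count for 7 of 29. Values without it are given for the named changes that it moves by over 1.5 times, and for several others. Total counts in peaks ran from 26104576 to 55294838 per library.

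Summed over their peaks, the 3 receptor systems had overlapping levels in the 4 groups, and these sums were not tested. The serotonin receptor genes had 328 to 403 CPM (median 342) in handled mice at 0 min and 341 to 359 (median 351) at 45 min. The chronically restrained mice had 332 to 350 (median 342) at 0 min and 335 to 360 (median 349) at 45 min. Htr6, with peaks over its neighbours, had 159 of the mean serotonin sum of 346 CPM over all libraries. The value of 403 was that of animal 45. The other 7 libraries of its group had 328 to 342.2 (mean 338.3), against 340.6 to 359 (mean 349.3) in handled mice at 45 min. The adrenergic receptor genes had medians of 299.9, 315, 311 and 311 CPM in the same order of groups. Without animal 45, handled mice at 0 min had adrenergic sums of 293.7 to 312.3 (mean 300.5), against 302.5 to 318.4 (mean 311.7) at 45 min. The dopamine receptor genes, with fewer peaks, had medians of 52, 51.8, 52.2 and 52.7 CPM. The ranges of all 4 groups overlapped in each system. For the serotonin genes of handled mice without animal 45, the overlap on TMM-scaled CPM was only from 340.6 to 342.2. On CPM by total count these 7 libraries at 0 min had 331.8 to 352.6 (mean 342.2). The 45 min sums are not given on that scale, so the narrow overlap is known for TMM-scaled CPM alone.

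**Figure D2:**
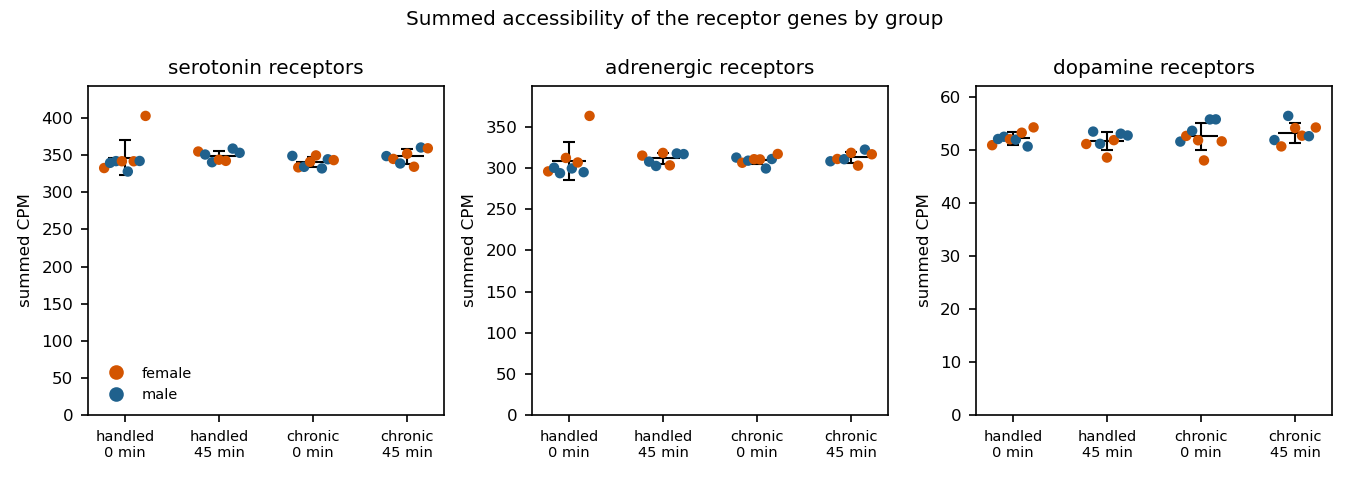
Summed CPM of the peaks of the serotonin, adrenergic and dopamine receptor genes in the 4 groups, with a point for each library coloured by sex and bars at the mean and SD (8, 7, 8 and 7 libraries). The groups overlap in each panel, and the highest serotonin (403) and adrenergic (363) values belong to animal 45.

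The acute comparison asked which sites differed 45 min after restraint began. None of the 29 genes and none of the 183 peaks passed at 45 min against 0 min, averaged over both histories (14 against 16 libraries, edgeR, adjusted p under 0.05). Of all peaks tested 0.116% were called in this comparison (0.0731% higher and 0.0432% lower), and of all summed genes 0.375%. An unadjusted p under 0.05 was found for 11 member peaks (6.01%), against 7.17% of all peaks, and for 4 genes, against 9.53% of all genes. DESeq2 called none of these genes or peaks either. Serotonin receptor peaks were positive in 46 of 91 cases (median log2 change 0.0043), adrenergic in 33 of 61 (0.0056) and dopamine in 10 of 23 (−0.026), against 49% of all peaks (median −0.0025).

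For the acute change averaged over both histories, the 95% interval of all 29 genes lay between −0.25 and 0.25. The lowest bound was −0.24, at Drd3, and the highest 0.20, at Htr1d. The SE ran from 0.018 to 0.079. Within a history the intervals were wider. In handled mice 24 of 29 lay within 0.25 of 0, with bounds from −0.42 at Drd3 to 0.33 at Htr1d, and in chronically restrained mice 25 of 29, with bounds from −0.28 at Drd1 to 0.27 at Htr7. For single peaks the bounds of the averaged change ran from −0.53 to 0.57, and 75 of 183 intervals lay within 0.25 of 0. These intervals are for each gene or peak alone and are not adjusted for their number.

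**Figure D3:**
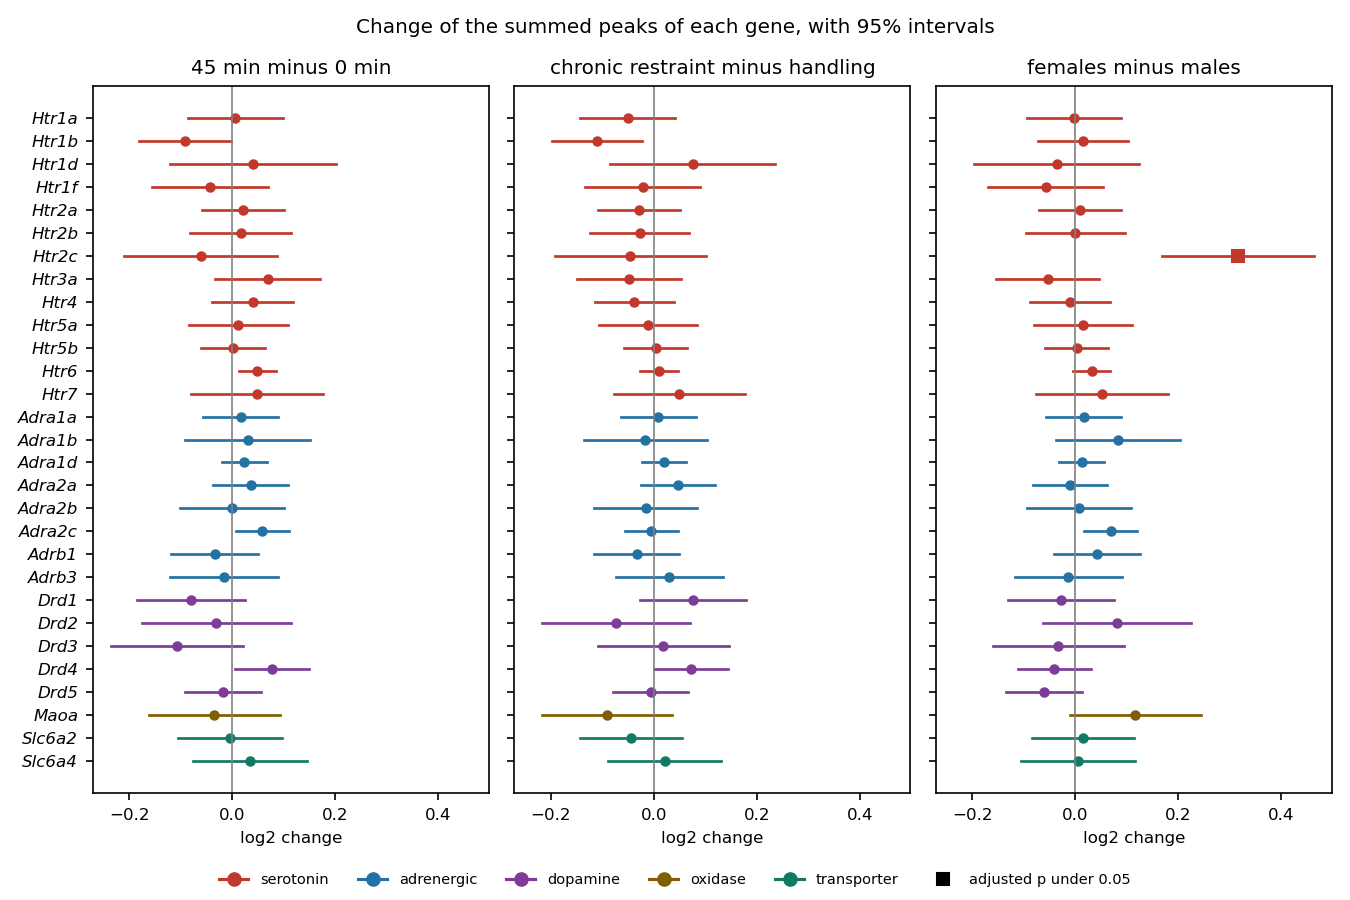
Log2 change of the summed peaks of 29 monoamine genes with 95% intervals for 45 min minus 0 min, chronic restraint minus handling, and females minus males, coloured by system. Intervals lie between −0.25 and 0.25 in the first 2 panels, and only Htr2c in the third panel, drawn as a square, passed an adjusted p of 0.05.

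The genes with the smallest p were Htr6, Adra2c and Drd4. Htr6 had a log2 change of 0.049 ± 0.018 (SE), with an adjusted p of 0.322 (edgeR). Its summed level was 147.9 to 168.3 CPM (median 156) in handled mice at 0 min and 155 to 167 (median 159) at 45 min. The chronically restrained mice had 149 to 163 (median 155) and then 160.4 to 166 (median 162). The groups overlapped in both histories. The highest value, 168.3, was that of animal 45, and without it the highest was 167.4, in a handled mouse at 45 min, and the change 0.054 (adjusted p = 0.109). Adra2c had 0.058 ± 0.025 (adjusted p = 0.439) and Drd4, a Gi-coupled dopamine receptor gene, 0.077 ± 0.035 (adjusted p = 0.469). Of the peaks of Htr6 4 overlapped Nbl1 or Tmco4, and of those of Drd4 4 overlapped Deaf1. The 4 of Htr6 had mean counts of 280.4, 806.4 and 416.9 (Tmco4) and 2392 (Nbl1), beside 6244 for the summed gene. Most of the Htr6 count thus came from peaks over its neighbours.

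The member peak with the smallest p lay past the end of Htr1b, the Gi-coupled receptor known from axon terminals (chromosome 9, 81625706 to 81626534, 1757 bp from the gene body). It had 2.42 to 5.08 CPM (median 2.87) in handled mice at 0 min and 1.49 to 2.77 (median 2.42) at 45 min. In chronically restrained mice it had 1.87 to 3.33 (median 2.84) and 2.11 to 2.90 (median 2.45). The 45 min libraries were on the low side in both histories, with overlap. The log2 change was −0.31 ± 0.083 and the adjusted p 0.119 (edgeR). By batch the difference was −0.39, −0.30, −0.12 and −0.44. Without animal 45, which had the value of 5.08, the change was −0.27 (adjusted p = 0.139). An added covariate was each library's share of counts in the 1% of peaks with the highest mean count over all libraries. With it the change was −0.35 with an adjusted p of 0.00904, so the call depends on that setting. The same covariate raised the calls over all peaks from 299 to 1766 (0.687%), beside 1 of 183 member peaks (0.546%). The peak over the Htr1b start (81631445 to 81634444) differed by 0.15, −0.019, −0.050 and −0.19 in the 4 batches.

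A peak inside Slc6a2 (chromosome 8, 92984380 to 92984864) was next. It had 0.67 to 1.81 CPM (median 0.98) in handled mice at 0 min and 1.08 to 1.58 (median 1.3) at 45 min, and 0.78 to 1.26 (median 1.01) and 0.90 to 1.53 (median 1.22) in chronically restrained mice. The log2 change was 0.35 ± 0.11 with an adjusted p of 0.303 (edgeR), and 0.40 with an adjusted p of 0.0826 without animal 45. The Htr4 peak of the highest density had 0.24 ± 0.082 (adjusted p = 0.404). Its group medians were 8.48 and 9.09 CPM in handled mice and 7.13 and 8.82 CPM in chronically restrained mice. Without animal 45, which had its highest value (12.6 CPM), the change was 0.28 (adjusted p = 0.0917). Without batch 1 this peak was called, at 0.31 with an adjusted p of 0.0454, where 0.0778% of all peaks were.

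In handled mice, for which the restraint was the first, no gene or peak of the set passed (edgeR). Of all peaks 0.0109% were called there (0.00972% higher and 0.00117% lower), and of all genes 0.0429%. Unadjusted, 6 peaks and 2 genes had a p under 0.05, against 5.52% of all peaks and 5.34% of all genes. The Htr1b peak past the gene end again had the smallest p (−0.45 ± 0.12, adjusted p = 0.29). It was followed by the start peak of Htr2a, a Gq-coupled receptor gene (chromosome 14, 74640563 to 74641250, 0.36 ± 0.13, adjusted p = 0.731), and by a peak of Htr4 (62322908 to 62325563, 0.17 ± 0.067, adjusted p = 0.795). Of the genes, Drd3 had −0.23 ± 0.089 (adjusted p = 0.77), with 4.29 to 5.72 CPM (median 4.76) at 0 min and 2.95 to 4.42 (median 4.16) at 45 min. Adra2c had 0.077 ± 0.036 (adjusted p = 0.902) and Htr1b −0.12 ± 0.061 (adjusted p = 0.944). Without animal 45 the changes were −0.34 for the Htr1b peak, −0.20 for Drd3 and −0.083 for Htr1b as a gene.

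In chronically restrained mice, again, nothing of the set passed (edgeR), where 0.00272% of all peaks and 0.00572% of all genes were called. Unadjusted, 10 peaks and 1 gene had a p under 0.05, against 4.73% of all peaks and 4.53% of all genes. The start peak of Htr6 (chromosome 4, 139071312 to 139077158) had 0.15 ± 0.054 (adjusted p = 0.982), a second peak past the end of Htr1b (chromosome 9, 81626965 to 81627464) −0.34 ± 0.13, and a peak of Htr4 (62326912 to 62327205) 0.47 ± 0.185, both with an adjusted p of 1. Summed, Htr6 had 0.067 ± 0.025 (adjusted p = 0.96), Drd1 −0.13 ± 0.072 and Drd4 0.080 ± 0.050, the last 2 with an adjusted p of 1.

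Among other genes of monoamine pathways, 2 peaks rose at 45 min in the average over both histories. Their lists were chosen with earlier results of these data known, so the share called in a list is a description and not a test of it. A list of 13 genes held those for synthesis, storage and other clearance, and also Htr3b, a serotonin receptor gene outside the monoamine set. Of the 122 peaks of this list, 1 was called (0.82%, against 0.116% of all peaks). The called peak lay inside Ddc, the decarboxylase that makes dopamine and serotonin from their precursors (chromosome 11, 11844211 to 11844964). It had 1.62 to 2.46 CPM (median 2.14) in handled mice at 0 min and 2.41 to 3.36 (median 2.70) at 45 min. In chronically restrained mice it had 1.49 to 2.57 (median 2.08) and 2.11 to 2.98 (median 2.48). In handled mice 6 of the 7 libraries at 45 min were above all at 0 min, and in chronically restrained mice 3 of 7. The log2 change was 0.43 ± 0.082 (adjusted p = 0.00407, edgeR), and by batch 0.38, 0.49, 0.31 and 0.54. The other 8 peaks of Ddc did not pass, and the summed gene had 0.035 ± 0.040 (adjusted p = 0.884).

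Of 734 peaks of 20 genes of G protein signalling, 1 was called (0.136%, near the 0.116% of all peaks), inside Adcy5, an adenylyl cyclase that makes cyclic AMP (chromosome 16, 35182504 to 35184269). It had 4.93 to 6.91 CPM (median 5.32) in handled mice at 0 min and 5.79 to 7.69 (median 7.31) at 45 min, and 5.12 to 6.21 (median 5.57) and 5.89 to 7.33 (median 6.91) in chronically restrained mice. The log2 change was 0.30 ± 0.057 (adjusted p = 0.00435, edgeR), and by batch 0.24, 0.37, 0.40 and 0.11. Neither peak passed within a history. Ddc had 0.51 ± 0.12 (adjusted p = 0.119) in handled and 0.35 ± 0.12 (adjusted p = 0.969) in chronically restrained mice, and Adcy5 0.31 ± 0.080 (adjusted p = 0.303) and 0.29 ± 0.080 (adjusted p = 0.683). Without batch 2 both calls were lost, with changes of 0.40 for Ddc (adjusted p = 0.276) and 0.27 for Adcy5 (adjusted p = 0.411), and without batch 3 that of Adcy5, with 0.26 (adjusted p = 0.144). Both were lost with a single sex, where the changes were 0.46 and 0.42 for Ddc and 0.30 and 0.31 for Adcy5 in females and males. No summed gene of either list passed. The smallest p belonged to Slc18a2, the vesicular monoamine transporter gene, at 0.13 ± 0.036 (adjusted p = 0.11), with 10 of its 11 peaks positive.

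Markers of oligodendrocytes, the myelin-forming cells, were called in the same comparison for 1 of 7 genes, against 0.375% of all genes. It was Mobp (0.16 ± 0.028, adjusted p = 0.00195, edgeR), and 63 of their 105 peaks were positive. Summed, these markers had 618.5 to 696.2 CPM in handled mice at 0 min and 651.7 to 684.6 at 45 min, and 614.5 to 659.1 and 629.7 to 682.2 CPM in chronically restrained mice. These ranges overlapped. Of the inhibitory neuron markers 1 of 92 peaks was called (1.09%, against 0.116% of all peaks), in Adarb2 (0.33 ± 0.070, adjusted p = 0.0248), with 53 of 92 positive and summed ranges of 224.2 to 278.7, 237.1 to 250.5, 226.3 to 246.6 and 230.1 to 250.5 CPM in the 4 groups. The part of either cell type in the Ddc and Adcy5 values was not tested. No marker gene or peak of the other 7 lists was called.

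**Figure D4:**
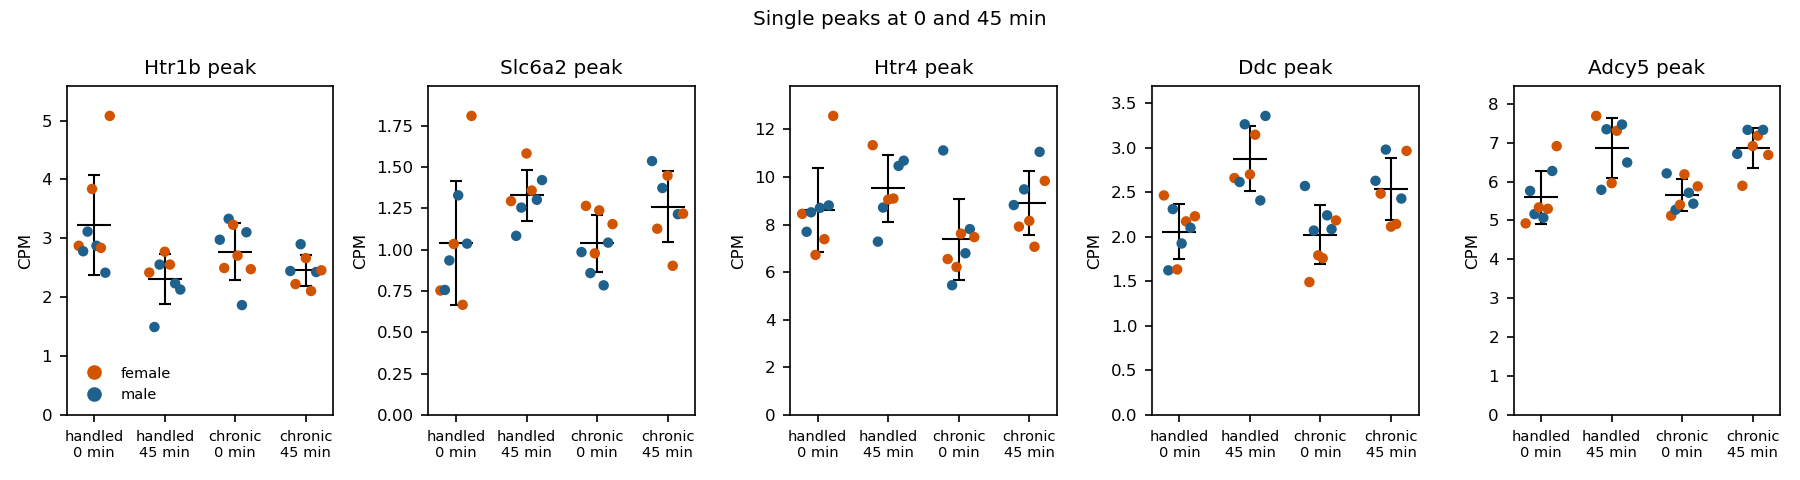
CPM of 5 single peaks in the 4 groups, with a point for each library coloured by sex and bars at the mean and SD (8, 7, 8 and 7 libraries). The Htr1b, Slc6a2 and Htr4 peaks did not pass (adjusted p of 0.119, 0.303 and 0.404), and the Ddc and Adcy5 peaks rose at 45 min (log2 changes of 0.43 and 0.30).

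Chronic restraint was compared with handling to ask whether repeated stress left a lasting difference. Averaged over both times, no gene or peak of the monoamine set passed, and none of all peaks or genes did (0% called, edgeR). Unadjusted, 13 of the 183 peaks (7.1%) had a p under 0.05, against 5.44% of all peaks, and 2 genes, against 7.01% of all genes. DESeq2 called 1 peak and 2 genes in all, none of them in the set. Serotonin receptor peaks were negative in the median (−0.034, 35 of 91 positive), adrenergic peaks had a median of 0.0079 (32 of 61 positive) and dopamine peaks one of −0.0031 (11 of 23), beside −0.0049 over all peaks (48% positive). These shares were not tested. All 29 gene intervals again lay within 0.25 of 0, from −0.22 at Drd2 to 0.24 at Htr1d.

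Htr1b had the smallest p of the genes, with a log2 change of −0.11 ± 0.043 (adjusted p = 0.705, edgeR). Its summed level was 15.4 to 21.8 CPM (median 16.2) in handled mice at 0 min and 13.2 to 17.5 (median 15.7) in chronically restrained mice. At 45 min it was 14.2 to 17.2 (median 15.6) and 13.2 to 16.2 (median 14.7). The groups overlapped at both times. By batch the difference was −0.091, −0.12, −0.12 and −0.12. Without animal 45, which had the value of 21.8, the change was −0.087 (adjusted p = 0.8). In males alone the fit gave 0.019, so the direction did not hold there. The acute and chronic values of Htr1b share libraries and are not independent. Drd4 had 0.072 ± 0.035 (adjusted p = 0.707) and Drd1, a Gs-coupled dopamine receptor gene, 0.076 ± 0.051 (adjusted p = 0.728).

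Among peaks, the smallest p belonged to a peak before the start of Htr1b (chromosome 9, 81635486 to 81635741, −0.45 ± 0.13, adjusted p = 0.857). It had a mean count of 25.77 per library. A peak 3342 bp from Adrb1 (chromosome 19, 56718419 to 56718775) had −0.38 ± 0.12 (adjusted p = 0.857) and a peak inside Htr1f, a Gi-coupled serotonin receptor gene (chromosome 16, 65092694 to 65093299), 0.32 ± 0.10 (adjusted p = 0.897).

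Taken at each time, chronic restraint again gave no call (0% of peaks and genes at 0 min and at 45 min, edgeR). At 0 min 8 peaks and 1 gene had an unadjusted p under 0.05, against 4.6% of all peaks and 4% of all genes. Here the genes with the smallest p were Htr1b (−0.14 ± 0.059), Drd1 (0.13 ± 0.069) and Drd4 (0.069 ± 0.048), each with an adjusted p of 0.954. The peaks were those of Htr1f (65022336 to 65022705, −0.45 ± 0.16), Adra2b (chromosome 2, 127363771 to 127364472, 0.39 ± 0.14) and Drd4 (chromosome 7, 141299928 to 141300274, 0.42 ± 0.16, over Deaf1), each with an adjusted p of 0.997. Without animal 45 the change was −0.093 for Htr1b and −0.27 for the Htr1f peak. At 45 min 9 peaks and 0 genes had an unadjusted p under 0.05, against 3.78% and 2.79%. The genes were Drd3 (0.15 ± 0.092), Drd4 (0.075 ± 0.051) and Adra2b (−0.097 ± 0.072), and the peaks those past the end of Htr1b (81626965 to 81627464, −0.45 ± 0.13), near Adrb1 (56718419 to 56718775, −0.53 ± 0.18) and in Adra1a, a Gq-coupled receptor gene (chromosome 14, 66652685 to 66652877, −0.54 ± 0.20). All had an adjusted p of 1.

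Whether the acute response differed between histories was tested as an interaction, and none of the set and none of all peaks or genes passed (0%, edgeR, and no member in DESeq2). Unadjusted, 6 peaks and 1 gene had a p under 0.05, against 3.03% of all peaks and 1.02% of all genes. The gene was Drd3, with a log2 difference of 0.26 ± 0.13. Its median levels at 0 and 45 min were 4.76 and 4.16 CPM in handled mice and 4.60 and 4.40 CPM in chronically restrained mice. Adra2b had −0.16 ± 0.099 and Slc6a4 −0.15 ± 0.11. The peaks were those of Adra2b (127363771 to 127364472, −0.56 ± 0.21), Adrb1 (chromosome 19, 56728172 to 56728652, 0.56 ± 0.24) and Htr3a (chromosome 9, 48910776 to 48911410, 0.38 ± 0.18). Every one had an adjusted p of 1. The intervals are wide here, from −0.45 to 0.51 for genes, and 15 of 29 lay within 0.25 of 0.

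Between the sexes, Htr2c, a Gq-coupled serotonin receptor gene on the X chromosome, was higher in females. Its only peak lies over the start (chromosome X, 146962258 to 146963020). Females had 2.78 to 5.72 CPM (median 3.63, mean 3.67 ± 0.64 SD, n = 15) and males 2.14 to 3.60 (median 2.98, mean 2.96 ± 0.41 SD, n = 15). Of the 15 females 8 were above the highest male, and the ranges overlapped. As a gene the log2 difference was 0.32 ± 0.072 with an adjusted p of 0.0443, and it was the only one of 29 called, where 0.272% of all genes were called in either direction and 10.2% of the 870 X-linked genes were called higher in females. The same peak among all peaks had an adjusted p of 0.0954 and was not called, as no member peak was. Of all peaks 0.035% were called (0.0327% higher and 0.00233% lower in females), and of X-linked peaks 4.05% were called higher. DESeq2 called it at both levels (adjusted p of 0.00969 and 0.0431).

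The Htr2c call is near its threshold. By batch the difference was 0.067, 0.43, 0.27 and 0.49. Without animal 45, which had the highest value of 5.72 CPM, females had 3.53 ± 0.31 (n = 14), 7 of the 14 were above the highest male, and the log2 difference was 0.27 with an adjusted p of 0.0668. X-linked genes were higher in females in general, with a median log2 difference of 0.14 and 97.9% of 870 positive, against a median of 0.025 on autosomes. Htr2c lay at the 94.7th percentile of X-linked genes. Counts on the X chromosome made up 0.76% to 0.96% of the total in females and 0.697% to 0.78% in males. The share of 0.96% was that of animal 45, and the other 14 females had 0.854% at most. Sums of Htr2c in females were 4.01, 3.66, 3.51 and 3.52 CPM on average in handled mice at 0 and 45 min and chronically restrained mice at 0 and 45 min, and in males 3.02, 2.85, 3.08 and 2.88 CPM. Without animal 45 the mean of handled females at 0 min was 3.43 CPM (n = 3), so the first of these means rests on that library.

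Maoa, also X-linked, was not called (0.12 ± 0.062, adjusted p = 0.685, edgeR) and lay at the 32.8th percentile of X-linked genes. Females had 19.4 to 40.3 CPM (median 22.5) and males 19.5 to 24.8 (median 22.3). The value of 40.3 was that of animal 45, and without it females had 22.95 ± 2.2 CPM (n = 14) against 22.1 in males, with a log2 difference of 0.058 (adjusted p = 0.948). Adra2c had 0.068 ± 0.025 (adjusted p = 0.576). Unadjusted, 17 peaks (9.29%) had a p under 0.05, against 5.37% of all peaks, and 2 genes, against 7.25% of all genes. After Htr2c the peaks with the smallest p were in Htr4 (62342364 to 62342760, −0.37 ± 0.11, adjusted p = 0.677) and in Drd2, a Gi-coupled dopamine receptor gene (chromosome 9, 49404160 to 49404359, 0.42 ± 0.14, adjusted p = 0.832).

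**Figure D5:**
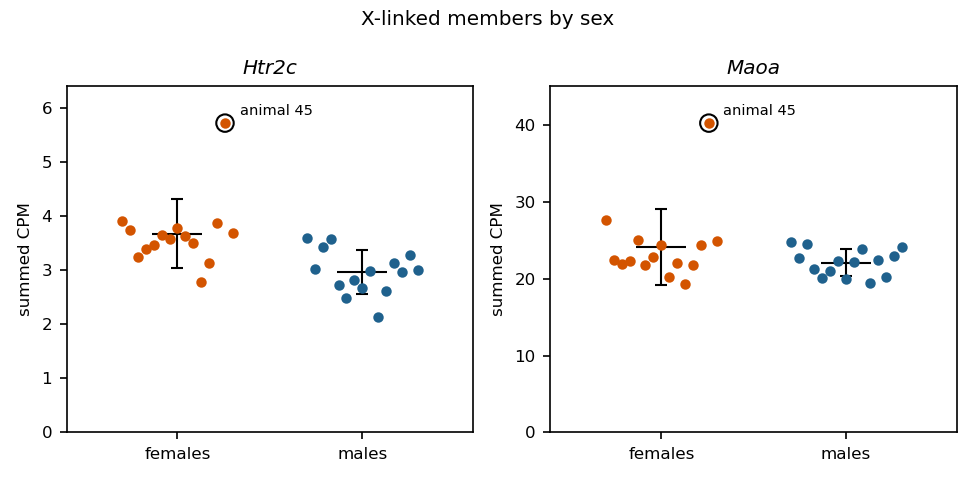
Summed CPM of Htr2c and Maoa in 15 females and 15 males, with a point for each library, bars at the mean and SD, and a ring around animal 45. Htr2c is higher in females (means 3.67 and 2.96), and the Maoa ranges overlap apart from animal 45 (40.3) and 3 other females above the highest male.

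The acute change did not differ between the sexes for any of the 29 genes at an adjusted p under 0.05 (0% of all genes, edgeR, a model of group by sex with batch). The smallest p was 0.0525, at Adra2c (−0.097 ± 0.048, adjusted p = 0.943), followed by Htr6 (−0.057 ± 0.036) and Htr5a (−0.14 ± 0.092), both with an adjusted p of 0.943. Without animal 45 the difference at Htr5a was −0.082. The interval bounds ran from −0.44 at Htr1d to 0.33 at Htr2c, and 16 of 29 intervals lay within 0.25 of 0.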

How the data were processed

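Bulk ATAC-seq libraries of the ventral hippocampus of 30 mice were analysed. The authors deposited unnormalized counts, 1 whole number for each peak region and library. Genrich 0.6.1, Picard, Bowtie2 and Trimmomatic are named in the submitters' processing notes, with the build GRCm38. How regions were merged and whether reads, fragments or insertions were counted is not given in the sources used here. The table's 2 columns that matched no sample were not used. Genes and starts came from RefSeq tables (GRCm38.p6).

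edgeR 4.0.16 in R 4.3.3 (filterByExpr, TMM, glmQLFit with a robust prior, glmQLFTest) fitted the 4 groups, sex and batch to 257143 peaks, and to counts summed over the peaks within 10 kb of each gene (34935 genes, with library sizes from the peaks). P-values were adjusted by Benjamini-Hochberg over all features and called under 0.05, and SE are of the fitted log2 change. DESeq2 1.42.0 and other settings served as alternatives. The effect by batch is a difference of mean log2 CPM (prior count 2), for Ddc and Adcy5 without a sex term. In batch 4 the 45 min groups held only animal 71 (a handled male) and animal 23 (a chronically restrained female). Animal 45 was also in batch 4. Peaks were placed with GenomicRanges 1.54.1. P-values set a difference between groups or sexes against the spread between animals. The mean counts of member peaks had a median of 58.4, which limits single peaks.

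The genes and lists were chosen with earlier results of these data known. In each comparison the text names genes and peaks that passed and the 3 of each with the smallest p (at most 1 peak per gene). For levels it names start peaks and the 5 densest peaks, and of other lists genes with a called peak. Marker lists of cell types gave 1 called peak each for inhibitory neurons (Adarb2) and oligodendrocytes (Mobp) and 0 for the others.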

Additional observations from a re-analysis of the deposited data

Results flagged for a closer look

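Among 192 sets (a gene or named peak in a group of 7 or 8 libraries), 18 held a library whose gap to its neighbour was large for the range of its group. Chance alone gives about 1 in 20 sets.

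Animal 45, a handled female at 0 min, accounted for 10 of the 18, each as the highest of its group. The summed values were 28.8 CPM for Htr1a (next highest 23.4), 5.72 for Htr2c (3.78), 79.3 for Htr4 (65.4), 20.5 for Htr5a (16.3), 12 for Adra1b (8.25), 67 for Adrb1 (52.6), 5.72 for Drd3 (4.96) and 40.3 for Maoa (24.5). Its peak values were 2.82 CPM at Htr1f (65022336 to 65022705) and 12.6 at Htr4 (62453925 to 62455208). This library also had 42.15% of its counts at gene ends and a TMM factor of 0.875, and the part of either in these values was not tested.

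The other 8 values came from 7 animals. In chronically restrained mice at 45 min, animal 66 had the highest Htr1f value (10.1 CPM, and 2.49 in the same Htr1f peak), animal 31 the highest Drd4 value (25.2), animal 4 the highest value in the peak before the Htr1b start (0.962), animal 23 the lowest in the other named Htr1f peak (1.19) and animal 5 the highest in the Htr3a peak (3.9). Animal 18 had the lowest Drd3 value of handled mice at 45 min (2.95), and animal 3 the highest value in the Htr4 peak of chronically restrained mice at 0 min (11.1).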

How the results depend on the processing

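Of 53 changes of named genes and peaks, 3 reversed in some setting, none of them called: Htr1b for chronic restraint in males alone (0.019 averaged over both times and 0.027 at 0 min) and Drd4 for chronic restraint at 0 min in females alone (−0.034). The count of called member peaks was 0 in each comparison and became 1 for the averaged acute effect and in handled mice with an added covariate for the top 1% share (Htr1b), 1 for the averaged acute effect without batch 1 (Htr4), and 1 for sex with DESeq2 (Htr2c). A single called member peak is 0.546% of the 183. In the same 4 fits 0.687%, 0.146%, 0.0778% and 0.0412% of all peaks were called. Over all peaks the averaged acute effect gave 299 calls, and 20 (females alone) to 1766 (added covariate) under the alternatives. The single gene called for sex, Htr2c, gave a count of 0 without the batch term, with that added covariate, without animal 45, without batch 2, 3 or 4, and with gene bodies alone, gene bodies extended by 2 kb or nearest genes alone. Its log2 difference was 0.26 to 0.33 in these settings with adjusted p from 0.0502 to 0.999. With gene bodies alone, bodies extended by 2 kb or nearest genes alone, Htr2c kept its only peak, so its counts were the same. The other genes in the fit changed there (26944, 29684 and 16105 genes tested in place of 34935). The cause in the other settings was not tested. The counts of called member genes and peaks in the other comparisons were the same in each setting run. The median level of the 29 genes was 3.44 CPM per kb summed over peaks, 3.4 in handled mice at 0 min, and 4.22 for the densest peak of each gene, which is higher by construction.

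No paired analysis was possible because the animal numbers are not shared between groups.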
